A study of Mus musculus with 2 samples.

Results

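The genes described are 3 NOTCH receptors (Notch1, Notch2 and Notch3), 4 ligands (Jag1, Jag2, Dll1 and Dll4) and 3 target genes (Hes1, Hey1 and Heyl). They were taken by gene name from the probes of 2 two-colour arrays, which gave 13 of 39429 probes, at least 1 for each of the 10 genes. Of these 13 probes, 11 passed a filter on dim signals, and every gene kept a probe. To pass, a probe needed 2 or more spots well above background in the knockout channel of each array, or in the control channel of each array.

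NOTCH proteins are receptors at the cell surface that are activated by JAG and DLL ligands on a neighbouring cell. Ligand binding exposes the receptor to cutting by ADAM10 and then by gamma-secretase, and the freed intracellular domain joins RBPJ in the nucleus to switch on HES and HEY genes. These encode transcriptional repressors of the basic helix-loop-helix family. In the developing urinary tract the pathway is known for roles in nephron segments, in blood vessels and in smooth muscle cells.

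RNA came from ureters of NMRI mouse embryos at E14.5, dissected whole, with 150 ng of total RNA as input. The labelled control had the genotype Smad4(fl/?), in which the second allele is not resolved. The labelled knockout, named Smad4cKO (UE), is written Pax-cre/+;Smad4(fl/fl) in the sample labels and with Pax2-cre in the series title. Both genotypes thus carry at least 1 floxed Smad4 allele, and Cre is named only in the knockout. SMAD4 is the partner that receptor-activated SMAD proteins share in BMP and TGF-beta signalling, and the comparison asks how its loss in the Cre-expressing cells changes expression in the ureter. On replicate 1 the knockout carried Cy3 and the control Cy5, and both samples were labelled female. On replicate 2 both were labelled male and the dyes were exchanged. The sources used here do not give the number of embryos per sample, nor whether litters differed between the arrays. The p-values therefore measure the spread between these arrays only, which may be technical.

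Between 66.4% and 68.7% of spots were well above background in the 4 channels, no spot was saturated, and the 2 arrays limit the precision of every value. Across the 20104 genes tested, the log2 ratios of the arrays correlated at 0.0168 (Pearson's r across genes, which are not independent replicates). Smad4 itself read -0.58 and -0.08 on the log2 ratio scale, with levels of 14.28 in the knockout and 14.86 in the control of replicate 1 and of 14.44 and 14.52 on replicate 2. It did not pass the test, and whether its probe lies in the deleted part was not determined, so it does not check the labels. All 12 urothelial and all 7 ureteric mesenchyme markers listed for the tissue passed the filter. Ratios are given throughout as labelled knockout over labelled control, by the dyes in the labels. The authors' deposited table runs the opposite way on both arrays if its titles are read as knockout over control: there Notch1 stands at 1.38 and 1.28 and Jag2 at -1.17 and -1.30, as signed folds.

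What a probe reads depends on its sequence, and 4 probes are shown. Those of Notch1, Jag1 and Jag2 gave the values of their genes, while the Notch2 probe shown is not the one used for Notch2. The Notch1 probe gave the lowest mean ratio of the 10 genes. It lies at chr2:26319440-26319499 on the minus strand of mm9 and starts at base 5898 of its transcript in the array design. The less bright of the kept Notch2 probes, at chr3:97951233-97951292 on the plus strand, starts at base 7448. Capitals mark the longest run of bases that this pair of probes shares on the same strand, which is 6 bases; on opposite strands they share 7.
Notch1: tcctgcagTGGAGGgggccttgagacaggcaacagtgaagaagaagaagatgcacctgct
Notch2: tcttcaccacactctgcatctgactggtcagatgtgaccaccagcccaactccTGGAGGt

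The Jag1 probe (chr2:136907433-136907492, minus strand) and the Jag2 probe (chr12:114146887-114146946, minus strand) are shown because these ligands went in different directions. They share 11 bases, the longest run on the same strand in any of 75 pairs of member probes from different genes. Bases 1 to 30 of the Jag1 probe and bases 31 to 60 of the Jag2 probe hold it, in capitals.
Jag1: GGAGTATTCTCataagctagttgaatactt
Jag2: gaaaacaacGGAGTATTCTCggatcattgc

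No other such pair shared more than 9 bases on the same strand. The other probes used lie on mm9 at chr3:97953914-97953973 (Notch2), chr17:32257848-32257907 (Notch3), chr17:15504623-15504682 (Dll1) and chr2:119160779-119160838 (Dll4). Those of the target genes lie at chr16:30067820-30067879 (Hes1), chr3:8663432-8663491 (Hey1) and chr4:122926975-122927034 (Heyl). Which exon or untranslated region each probe lies in was not determined here. The Hes1 probe had the lowest GC content of these, 26.7%.

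None of the 10 genes passed the test (limma on the log2 ratios of both arrays, adjusted p under 0.05 over all genes), against 66 of 20104 genes, or 0.328%, in the whole table. Notch1 was lower in labelled knockout and Jag2 higher at an unadjusted p under 0.05, a level that 914 genes (4.55%) reached. None differed by 1.5-fold or more the same way on both arrays, as 0.368% of all genes did. The ratio was below 0 on both arrays for 6 genes (Notch1, Notch2, Jag1, Dll1, Hes1 and Heyl), a sign pattern of 24.6% of all genes. It was above 0 on both for Jag2, as for 21.7% of all genes, and of opposite sign for Notch3, Dll4 and Hey1. The median mean log2 ratio was -0.11 over the 10 genes and -0.0044 over all genes tested. The 95% interval, which limma moderates with a variance prior, spanned 0 for 8 of the 10 genes.

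**Figure D1:**
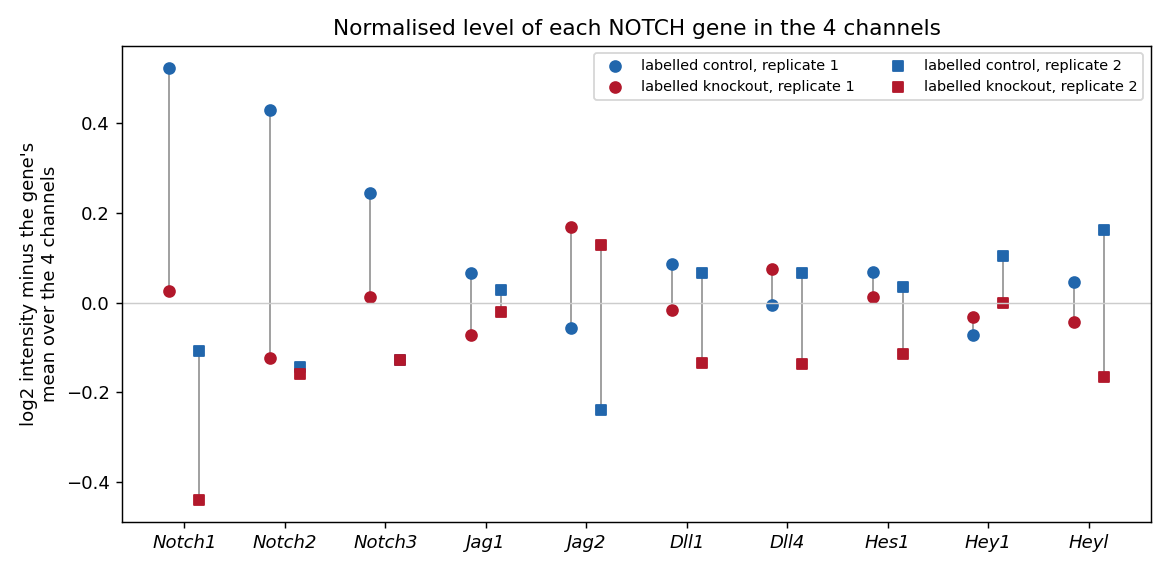
Normalised log2 intensity of the 10 NOTCH genes in the 4 channels, minus each gene's own mean over the channels; circles are replicate 1, squares replicate 2, red the labelled knockout and blue the labelled control, and a grey line joins the channels of an array. Notch1, Notch2 and Notch3 have their highest value in the control of replicate 1, and Jag2 has both knockout channels on top. The squares of Notch3 coincide, both at 13.52 before the mean was subtracted.

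Among the receptors, Notch1 had the largest difference. Notch1 is the receptor best known from T cells and from endothelium. Its normalised log2 intensity was 12.22 in the knockout and 12.72 in the control of replicate 1, and 11.76 and 12.09 on replicate 2. The knockout was the lower channel on each array, but both channels of replicate 1 stood above both of replicate 2, so the groups overlapped. Notch1 was 1.33-fold lower in labelled knockout, with a log2 ratio of -0.41 ± 0.12 (SD, n = 2 arrays). The 95% interval ran from -0.69 to -0.14, with an unadjusted p of 0.00657 and a limma adjusted p of 0.472. The 4 spots of the probe ranged from -0.52 to -0.46 on replicate 1 and from -0.37 to -0.24 on replicate 2. A second Notch1 probe, which starts at base 8221, did not pass the filter and read 0.05 and -0.16.

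Notch2, the receptor known for the proximal nephron, showed its difference on replicate 1. Its levels there were 13.02 in the knockout and 13.57 in the control, and on replicate 2 they were 12.98 and 13.00. The control of replicate 1 stood apart from the other 3 channels, and the groups overlapped. The mean log2 ratio was -0.28 ± 0.38 (SD, n = 2), with an interval from -0.61 to 0.04 and a limma adjusted p of 1.00. On replicate 1 the 3 spots without an outlier mark read between -0.60 and -0.51. The less bright kept probe of Notch2, whose sequence is shown above, read -0.10 and 0.02 (mean -0.04 ± 0.09). It was far dimmer, with levels of 7.21 in the knockout and 7.31 in the control of replicate 1, and of 7.10 and 7.07 on replicate 2. The probes did not show the same difference, and whether the low level accounts for this was not tested. Averaged over both, the Notch2 ratio was -0.16.

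Notch3, a receptor of vascular smooth muscle and pericytes, had levels of 13.66 in the knockout and 13.89 in the control of replicate 1, and of 13.52 in both channels of replicate 2. Its log2 ratio was -0.23 on replicate 1 and 0.000114 on replicate 2, and the groups overlapped. The interval of the mean (-0.12 ± 0.17) ran from -0.39 to 0.16. For all 3 receptors the control of replicate 1 was thus the highest channel, and the knockout of replicate 2 was the lowest for Notch1 and Notch2. The summed intensity of the receptors in the knockout was 0.762 of the control on replicate 1 and 0.960 on replicate 2.

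Of the ligands, Jag2 was the only gene of the 10 with both knockout channels above both control channels, as 13.9% of all genes were. JAG2 is a transmembrane ligand of the Serrate type. Its level was 9.12 in the knockout and 8.89 in the control of replicate 1, and 9.08 and 8.71 on replicate 2. The knockout channels thus lay close together, above controls that lay further apart. Jag2 was 1.23-fold higher in labelled knockout, with a log2 ratio of 0.30 ± 0.10 (SD, n = 2) and an interval from 0.03 to 0.57. The unadjusted p was 0.0339 and the limma adjusted p 1.00. All 4 spots of the probe were above 0 on each array, from 0.11 to 0.35 on replicate 1 and from 0.27 to 0.54 on replicate 2.

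Jag1, the other Serrate-type ligand, had levels of 10.62 in the knockout and 10.76 in the control of replicate 1, and of 10.67 and 10.72 on replicate 2. Both knockout channels were below both control channels, and the mean log2 ratio was small, -0.09 ± 0.06 (interval -0.36 to 0.17). On replicate 2 the Jag1 spots lay on both sides of 0, from -0.09 to 0.04. No test of the difference between Jag1 and Jag2 was run.

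Dll1, a Delta-type ligand, read 8.04 in the knockout and 8.15 in the control of replicate 1, and 7.92 and 8.13 on replicate 2. Its knockout channels were also both below the controls, with a mean log2 ratio of -0.15 ± 0.07 (interval -0.42 to 0.12). A second Dll1 probe was not well above background in any spot of any channel. Dll4, a Delta-type ligand known from arterial and sprouting endothelium, read 7.77 in the knockout and 7.69 in the control of replicate 1, and 7.56 and 7.76 on replicate 2. It was higher in the knockout on replicate 1 and lower on replicate 2, with a mean log2 ratio of -0.06 ± 0.20 (interval -0.34 to 0.22). On replicate 1 its spots ranged from -0.06 to 0.25, on both sides of 0.

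**Figure D2:**
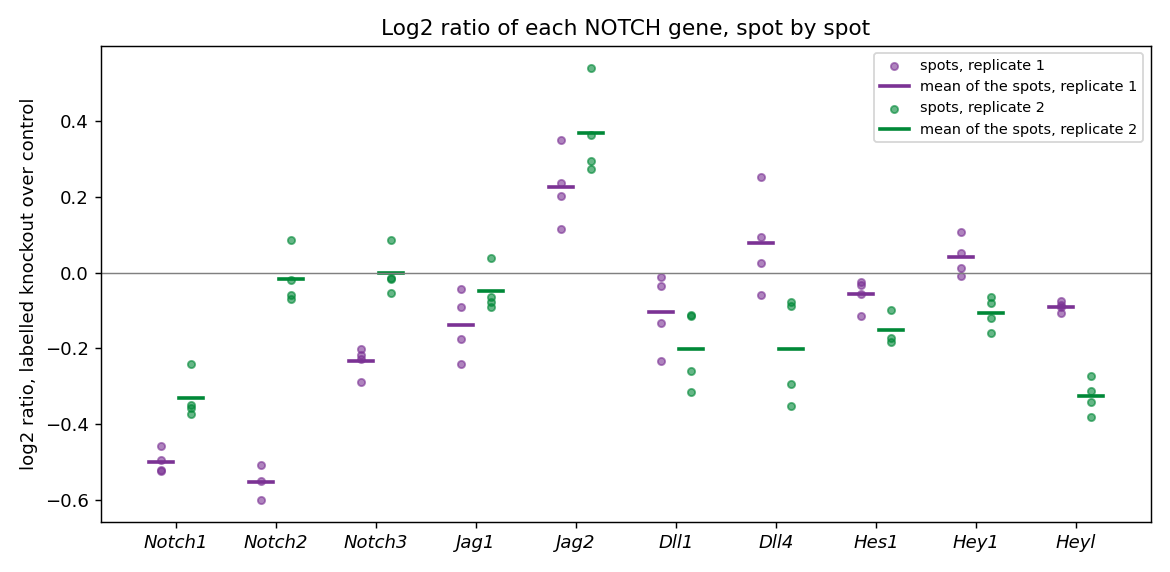
Log2 ratio of labelled knockout over control of each spot (points) and its mean per array (bars), for the probe used for each gene; purple is replicate 1 and green replicate 2. All spots of Notch1, Dll1, Hes1 and Heyl are below 0 and those of Jag2 above 0 on both arrays, while the spots of Notch1, Notch2, Notch3, Dll4, Hey1 and Heyl do not overlap between the arrays.

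The target genes gave the smallest differences for Hey1 and the largest for Heyl. Hes1, a direct target in many tissues, had levels of 10.51 in the knockout and 10.57 in the control of replicate 1, and of 10.38 and 10.54 on replicate 2. Both knockout channels were below both controls, with a mean log2 ratio of -0.10 ± 0.07 (interval -0.37 to 0.16). Hey1, known as a target in vessels and heart, had levels of 11.81 and 11.77 on replicate 1 and of 11.84 and 11.95 on replicate 2, the knockout first. The higher channel was the knockout on replicate 1 and the control on replicate 2, and the mean was -0.03 ± 0.10 (interval -0.30 to 0.24).

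Heyl, a target known from vascular smooth muscle, had levels of 9.67 in the knockout and 9.76 in the control of replicate 1, and of 9.54 and 9.87 on replicate 2. The channels did not overlap, and the difference was larger on replicate 2. Heyl was 1.16-fold lower in labelled knockout, with a log2 ratio of -0.21 ± 0.17 (SD, n = 2), an interval from -0.49 to 0.07 and an unadjusted p of 0.126. Its 4 spots lay within -0.11 and -0.08 on replicate 1 and within -0.38 and -0.27 on replicate 2. Both knockout channels were below both controls for 4 of the 10 genes (Jag1, Dll1, Hes1 and Heyl), a pattern of 15.3% of all genes, and the groups of 5 genes overlapped. The summed intensity of the targets in the knockout was 0.998 of the control on replicate 1 and 0.903 on replicate 2. A sum weighs the brightest gene most, here Hey1, the only target above 0 on replicate 1. The list medians were -0.06 and -0.15 for the targets, and -0.50 and -0.02 for the receptors. By sums and by medians, targets and receptors thus did not have their lower value on the same array.

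**Figure D3:**
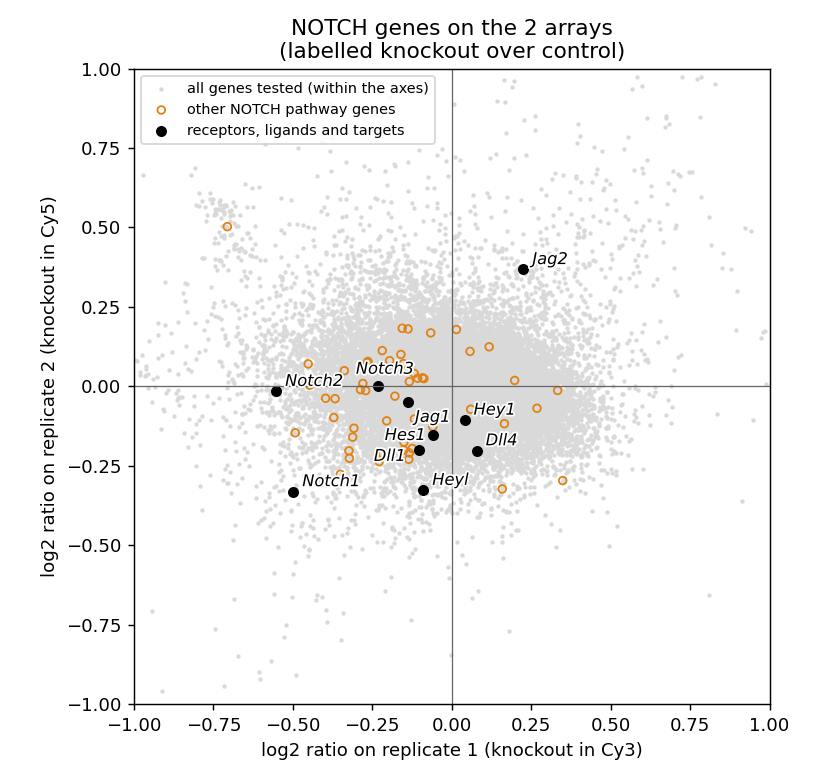
Log2 ratio of labelled knockout over control on replicate 1 (x axis) and replicate 2 (y axis) for the 10 NOTCH genes (black), 51 other genes of the pathway (orange) and all genes tested within the axes (grey). Of the black points, 6 lie below 0 on both arrays and only Jag2 lies above 0 on both.

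The rest of the pathway was read from 53 further genes in 6 roles, of which 52 were on the arrays and 51 passed the filter. None of the 51 passed the test (limma), and 3 (5.88%, against 4.55% of all genes) had an unadjusted p under 0.05, Dtx4 and Tle3 among them. The ratio was below 0 on both arrays for 22 genes (43.1%, against 24.6% of all genes), above 0 on both for 4 (7.84%, against 21.7%) and of opposite sign for 25. The median of the mean ratios was -0.10, and the median ratio was -0.16 on replicate 1 and -0.01 on replicate 2. The genes named are those with the largest absolute mean ratio in their role.

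At the cell surface, Notch4, an endothelial receptor, had a mean log2 ratio of -0.16 ± 0.02 (SD, n = 2 here and below). Dlk1, a Delta-like protein that lacks the usual receptor-binding domain, had -0.23 ± 0.006. Its moderated limma interval was far wider than this SD, from -0.50 to 0.03, and that of Notch4 ran from -0.43 to 0.10. Both intervals spanned 0. Of the 5 other receptors and ligands, 3 were below 0 on both arrays. Among enzymes that add sugars to the receptor, Mfng, a Fringe glycosyltransferase, had -0.18 ± 0.04. Pofut1, which attaches O-fucose, had -0.17 ± 0.05. Among the 9 proteases measured, Adam10, which makes the ligand-dependent cut, had -0.16 ± 0.07. Furin, which cuts the receptor on its way to the surface, had -0.22 ± 0.25. The moderated limma intervals of Mfng, Pofut1, Adam10 and Furin also spanned 0.

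Among ubiquitin ligases and endocytic adaptors, Dtx4 had -0.32 ± 0.24 (unadjusted p = 0.0345, limma adjusted p 1.00) and Dtx1 had -0.24 ± 0.11. Both encode Deltex proteins, which bind the receptor's intracellular domain. Of the 14 nuclear partners, 7 were below 0 on both arrays and 1 above. Tle3, a Groucho-type corepressor that HES proteins bind, had -0.27 ± 0.07. Among the other targets, Nrarp, a feedback inhibitor of the receptor's intracellular domain, had -0.23 ± 0.19. Hes2 had -0.19 ± 0.37, with ratios of opposite sign on the arrays.

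**Figure D4:**
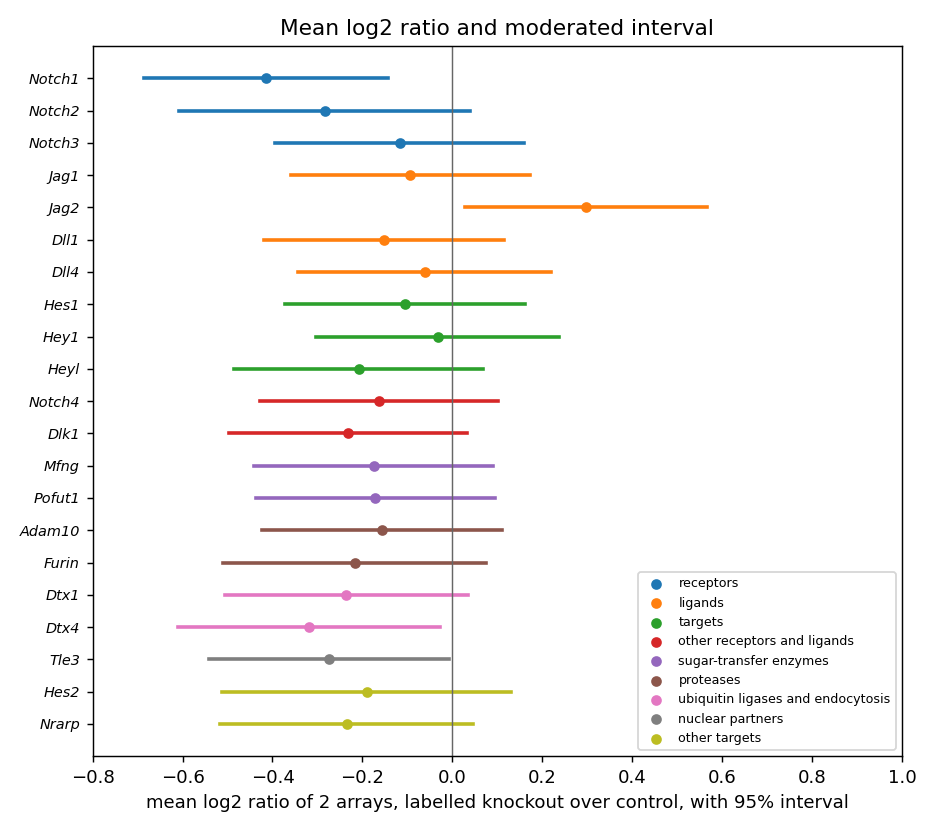
Mean log2 ratio of 2 arrays (points) with the moderated 95% interval of limma (lines) for the 10 NOTCH genes and 11 named genes of the wider pathway, coloured by role. Among the 10, the intervals of Notch1 and Jag2 lie off 0; among the others shown those of Dtx4 and Tle3 do, and none of these genes passed the adjusted test.

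The RNA is that of whole ureters, so fewer cells of a type and less RNA per cell cannot be told apart. Marker lists of cell types in and around the ureter were read from the same arrays, and outside the urothelial list no marker passed the test. For comparison, 24.6% of all genes tested were below 0 on both arrays and 21.7% above. Of 14 endothelial markers, 8 were below 0 on both arrays and none above, with list medians of -0.10 and -0.17. Their summed intensity was 99073 and 88742 in the knockout of replicates 1 and 2, and 100330 and 101770 in the control. Of 6 mural cell markers, 4 were below 0 on both arrays, with sums of 12051 and 11980 in the knockout and 14842 and 12481 in the control. Of 7 ureteric mesenchyme markers, 5 were below 0 on both, with sums of 103510 and 101250 against 124810 and 111340. No marker of these lists was below the filter. The sum in the knockout was below that in the control on both arrays for these lists, the receptors and the targets. For the targets it was 0.998 and 0.903 of the control, and for the ligands 0.968 and 1.00. For the 51 other pathway genes together it was 0.865 and 0.907, and for the other targets among them 1.10 and 0.963. Over all genes tested it was 0.944 on replicate 1 and 1.03 on replicate 2.

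The epithelial lists had higher sums in the knockout on both arrays. Among all genes tested, 21.7% were above 0 on both arrays and 24.6% below. Of 12 urothelial markers, 8 were above 0 on both arrays and 5 passed the test upwards, as 0.229% of all genes did, with sums of 52593 and 46318 in the knockout against 38276 and 32132 in the control. All 10 general epithelial markers were above 0 on both arrays, with sums of 244030 and 215970 against 209870 and 198680. Of 7 smooth muscle markers measured, 3 were above 0 on both arrays and 1 below. Their sums were 21297 and 20514 in the knockout and 22104 and 17297 in the control. The eighth, Lmod1, was not above the filter.

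The sums of nephron markers and of neural markers differed between the arrays. Of 9 nephron progenitor and early nephron markers, 5 were above 0 on both arrays, as 21.7% of all genes were. Of the rest, 1 was below 0 on both and 3 were of opposite sign. The sum of the 9 in the knockout was 0.916 of the control on replicate 1 and 1.33 on replicate 2. For 7 markers of neurons and glia the sum was 0.694 and 1.01 of the control. Of these 7, 6 were of opposite sign on the arrays, with list medians of -0.54 and 0.63. The receptors had 0.762 and 0.960. The part of any of these cell types in the NOTCH values was not tested.

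**Figure D5:**
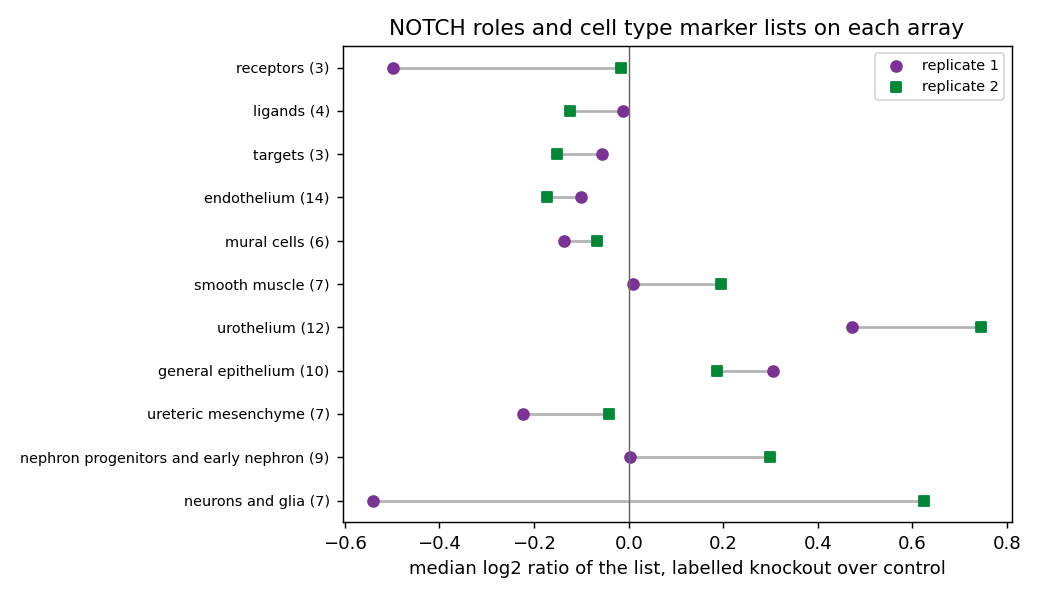
Median log2 ratio of labelled knockout over control of the NOTCH roles and of cell type marker lists on replicate 1 (circles) and replicate 2 (squares), with the number of genes measured in brackets. The receptors span -0.50 to -0.02 between the arrays, the neural list spans -0.54 to 0.63, and both epithelial lists lie above 0 on both arrays.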

How the data were processed

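Per the file headers, the authors read spot intensity on both two-colour arrays with Agilent Feature Extraction (10.7.3.1), whose deposited output also gives processed intensity and the log10 of red to green. Their deposited value table holds a score, namely a signed fold for every probe with median 1. It ran control over knockout by the dyes (correlation of knockout over control with it -0.822 and -0.739), and its scaling and centring are not given in the sources used here.

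Mean signals were corrected by normexp (offset 50) and loess-normalised within each array, giving control spots weight 0. Outlier-marked spots (3.52% and 3.66%) were left out, and the 4 spots of a probe averaged. Channel levels were taken after Aquantile. The brightest of 26522 kept probes stood for a gene. Names were updated through RefSeq (GRCm38.p6): accessions named 28328 probes, symbols 3400 and older symbols 243, while 7458 stayed as in the files. Log2 ratios were tested against 0 with limma (3.58.1, in R 4.3.3), two-sided and Benjamini-Hochberg adjusted over 20104 genes, with 9.21 prior degrees of freedom. Only the limma fit was tested on simulated data, with log2 ratios that held known changes. The steps before it were not. Plots used matplotlib 3.10.9.

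Members and lists were chosen with earlier results of these data known. Named are all members and, per pathway role, the 2 genes with the largest absolute mean, plus any that passed; 1 gene so chosen is not reported here. Each alternative changed one step: median centring, no background correction, a normexp offset of 0, Agilent's processed signals, 4 unpaired channels, no filter or a stricter one, the mean over probes, the deposited values, a prior with trend, and each array alone.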

Additional observations from a re-analysis of the deposited data

Results flagged for a closer look

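Notch3, Dll4 and Hey1 had log2 ratios of opposite sign on the arrays labelled female and male. The ratio on replicate 1 minus that on replicate 2 was -0.233 for Notch3, 0.281 for Dll4 and 0.146 for Hey1. The difference was not tested, and sex, dye orientation and array change together and cannot be told apart. Of all genes tested, 10788 of 20104 were of opposite sign on the arrays, and the Notch3 value on replicate 2 was 0.000114.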

How the results depend on the processing

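None of the 10 NOTCH genes and none of the other pathway genes measured passed the test in any of the 10 alternatives with a test, and each of the 10 genes kept the sign of its mean in all of them. The sign was partly fixed in advance. Unpaired channels and the prior with trend could not change a mean ratio, and both filter changes kept the same member probes. The mean over probes changed only Notch2. Over all 10 alternatives the Notch1 ratio lay between -0.42 and -0.41, with a lowest limma adjusted p of 0.225. Jag2 lay between 0.30 and 0.36, with a lowest limma adjusted p of 0.706. The unadjusted p was not under 0.05 for Notch1 with 4 unpaired channels (0.0979), nor for Jag2 with median centring (0.0672) or the authors' deposited values (0.072). Of the other pathway genes, between 0 (Agilent's processed signals, median centring and the deposited values) and 7 (no filter) reached that level. The number of NOTCH genes below 0 on both arrays was between 4, with median centring, and 7, with no background correction. Of all genes, 17.3% were below 0 on both arrays with median centring and 25.3% with no background correction. The median ratio of the NOTCH genes lay between -0.13 and -0.10. The genes called in the whole table ranged more widely, with 0 for median centring (347 at an unadjusted p under 0.05) and for no filter (1097), and up to 194 with Agilent's processed signals. Fitted as 4 unpaired channels (no replicate block), 26 genes of the table passed and no NOTCH gene did. With each array alone there is no test: Notch2 read -0.55 and -0.02. Each probe used had at least 3 spots well above background in every channel, but ratios of the dim ligands moved with the background correction: Dll4 read -0.05 without it and -0.09 at an offset of 0, and Dll1 read -0.17 and -0.19.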

Other observations

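Outside the rule for named genes, and chosen after their values were seen, a pair of pathway genes stood far apart on the arrays. Neurl1b, an E3 ubiquitin ligase that acts on NOTCH ligands, had a log2 ratio of -0.71 on replicate 1 and 0.50 on replicate 2. Its Cy5 channel was the brighter on both arrays, at 13.63 and 13.72 against 12.93 and 13.22 in Cy3. Sex, dye orientation and array change together and cannot be told apart. The neuron and glia list had medians of -0.54 and 0.63 on the same arrays, and a link with Neurl1b was not tested. Hes5, a target known from neural progenitors, read 0.35 and -0.30, the opposite order. Rbpj, the nuclear partner of the receptors, read -0.13 and -0.23, with a mean of -0.18 ± 0.07 (SD, n = 2) and an interval from -0.45 to 0.08.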
